A study of Mus musculus with 6 samples.

Results

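Heterotrimeric G protein alpha subunits were examined in common myeloid progenitors, blood precursors that can give rise to red cells, platelets, granulocytes and monocytes. The family was taken as 10 named mouse genes out of the 24815 gene identifiers in the files, namely Gna14, Gna15, Gnaq, Gna11, Gna12, Gna13, Gnas, Gnai2, Gnai3 and Gnaz. All 10 were found once and all 10 passed the filter on low counts. The family was chosen with the comparison of the genotypes already known, because Gna14 was among the genes that differed there. The genotype values of the members are therefore given as a description. Which members passed in the fit over all genes is stated once, and nothing is drawn from it.

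RNA sequencing had been done on cells sorted from the fetal liver of C57BL/6 embryos of stage E13.5. The mutant group (libraries C, D and Q) was homozygous for loss of the -77 enhancer of Gata2 (-77-/-), and the wild-type group (libraries A, F and L) was WT on the same strain. The labels name no treatment of either group. Both groups were gated for CD34 and c-kit, for low Fc receptor and against Sca-1, CD41, CD48 and mature lineage markers. Whether the 3 libraries of a genotype came from separate embryos is not stated, so the spread between them, and any p-value that rests on it, may be technical.

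The libraries held between 14473913 and 30596279 expected counts each, the read numbers that the program RSEM estimates for genes. Gata2 itself had 8.92, 16.5 and 17.8 CPM (counts corrected for the depth of each library) in mutants C, D and Q, against 78.6, 57.4 and 63.9 CPM in wild types A, F and L. Of the gate genes, Cd34 had 1254, 998 and 1024 CPM in mutants C, D and Q against 685, 862 and 861 CPM in wild types A, F and L, and Kit had 102, 292 and 270 CPM in the mutants against 330, 337 and 317 CPM in the wild types. The groups did not overlap for either gene, with Cd34 higher and Kit lower in the mutants, beside 22.0% of all genes without overlap in either direction. Neither gene passed in the fit over all genes, with or without mutant C. In TPM (corrected for gene length) Cd34 did not keep that order, with 323, 752 and 687 in mutants C, D and Q against 585 to 654 in the wild types. Of the genes gated against, Cd3e was at 0 in all 6 libraries. Ptprc was present at 154 to 250 CPM, Cd4 at 2.75 to 6.31 CPM and Ly6a, which encodes Sca-1, at 0.437 to 3.08 CPM. Cd5, Cd8a and Ly6g were at 1.54 CPM or less. Itga2b, which encodes CD41, was present at 7.82, 7.94 and 8.12 CPM in the mutants and 37.4, 26.2 and 30.7 CPM in the wild types and fell with and without mutant C. Cd48 had 446, 122 and 150 CPM in the mutants and 90.1, 112 and 114 CPM in the wild types. Each mutant was thus above each wild type, but Cd48 was not called with or without mutant C. Mutant C stood apart. The longer a gene, the lower was its level there beside mutants D and Q (Spearman's rho -0.75 over 12106 genes, not independent of each other), and results are therefore also given without it.

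A G protein is made of an alpha, a beta and a gamma subunit and relays signals from receptors at the cell surface. The receptor loads GTP onto the alpha subunit, which then acts on an effector until it hydrolyses the GTP. The alpha subunits form classes by effector. The Gq class (Gnaq, Gna11, Gna14 and Gna15) activates phospholipase C beta and calcium release, Gs (Gnas) stimulates adenylyl cyclase, the Gi class (Gnai2, Gnai3 and the toxin-insensitive Gnaz) inhibits it, and Gna12 and Gna13 act through guanine nucleotide exchange factors on the cytoskeleton. In platelets Gq and G13 relay thrombin, thromboxane and ADP signals, and Gz is known there as the partner of an adrenaline receptor.

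The end of the alpha subunit is the part that fits into the receptor, and the stretch of gene that encodes it is compared here base by base. The last 36 coding bases, stop codon included, are given 5′ to 3′ from the GENCODE M21 transcripts, with capitals at each base that differs from Gna14.
Gna14: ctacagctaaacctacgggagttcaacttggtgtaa
Gnaq: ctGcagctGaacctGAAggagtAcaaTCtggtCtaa
Gna11: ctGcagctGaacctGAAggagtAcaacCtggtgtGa
Gna15: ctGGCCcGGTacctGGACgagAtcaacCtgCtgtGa
Gnai2: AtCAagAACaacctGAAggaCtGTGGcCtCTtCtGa
Gnaz: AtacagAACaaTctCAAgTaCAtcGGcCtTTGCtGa
Within this stretch Gna11 differed from Gna14 at 8 bases, Gnaq at 9 and Gna15 at 15, while Gnai2 and Gnaz each differed at 19. Some of these bases leave the encoded amino acid unchanged or lie in the stop codon, so the counts do not measure differences in protein. The stretches of Gnaq and Gna11 encode the same amino acids. Over the whole coding sequence Gna14 was 75.5% identical to Gnaq and 74.8% to Gna11, against 61.4% to Gna15 and 56.8% to 60.5% to the members outside the Gq class. The closest pair was Gnaq and Gna11 with 80.5%.

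How far reads of one member could be counted for another was read from the same transcripts. Of all 50-base windows in the transcripts of Gna14, Gna15, Gna11, Gna12, Gnas, Gnai2, Gnai3 and Gnaz, 0% occurred exactly in a transcript of another gene. For Gnaq and Gna13 the share was 0.179% and 0.173%, and no window was shared between members. The strand of the libraries is not given in the sources used here, so reads of Gnas and of antisense transcripts at its imprinted locus cannot be told apart, and its values are uncertain in that respect.

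The alpha subunits covered a wide range of levels. TPM (transcript abundance corrected for gene length, with the same total in every library) was compared between genes within the wild-type libraries, a quantity that did not enter the choice of members. The mean of the most abundant member was 376 times that of the least abundant. Gnas, at 398 to 415 TPM, and Gnai2, at 361 to 421 TPM, overlapped in range and were the most abundant. They were followed by Gnai3 with 124 to 135 TPM, Gna12 with 44.3 to 47.9, Gna13 with 28.7 to 31.5, Gna15 with 24.0 to 26.9, Gnaq with 17.6 to 20.4 and Gna11 with 6.19 to 9.15. Gna14, at 2.82 to 3.22 TPM, and Gnaz, at 0.98 to 1.20 TPM, came last. Apart from Gnas and Gnai2, no neighbours in this order overlapped between the 3 wild-type libraries. Gna13 exceeded Gna15 in 5 of the 6 libraries and Gna14 exceeded Gnaz in 5 of 6. Gnas exceeded Gnai2 in 2 of 6, and the remaining neighbouring pairs kept their order in 6 of 6.

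**Figure D1:**
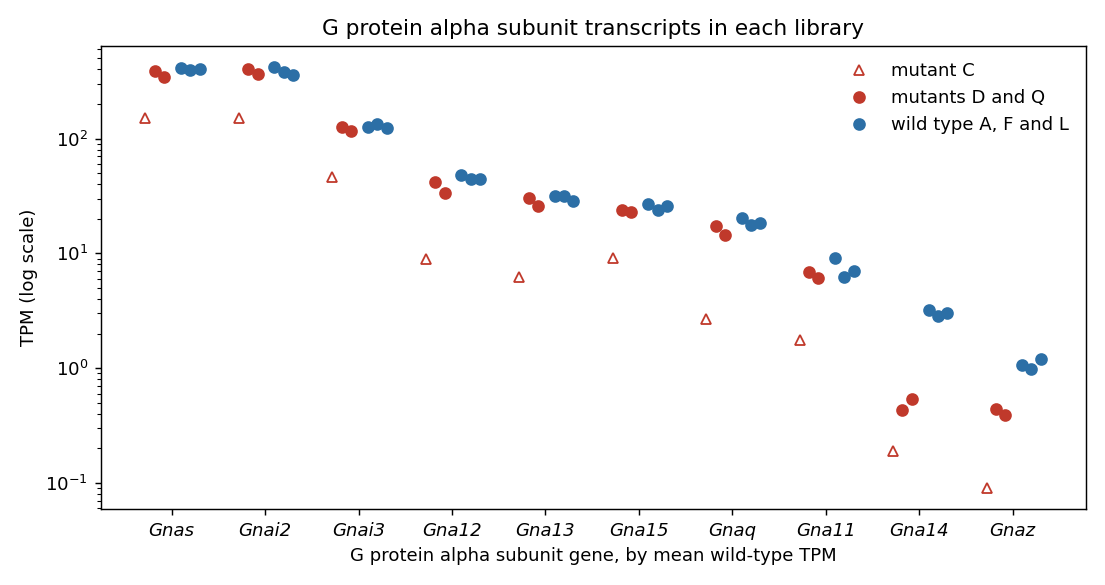
TPM (log scale) of each alpha subunit gene in every library, ordered by mean wild-type TPM, with mutants in red (mutant C as open triangles) left of wild types in blue. In mutants D and Q, Gna14, Gnaz, Gnaq, Gna12 and Gnas lie below every wild type, Gna14 and Gnaz by the widest margins on the log scale. Mutant C lies below the other libraries for all 10 genes.

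Mutant C was low in TPM for most genes, with a median log2 ratio of -1.59 to the wild-type mean over all genes tested, against -0.05 and -0.23 in mutants D and Q. Its TPM summed over the 10 members was 378, against 1041 and 931 in mutants D and Q and 1019 to 1102 in the wild types. Shares of the family within a library do not depend on that total, but the lower level of long genes in mutant C still enters them. Gnaq, at 5644 bases, held 0.714% of the family's TPM in mutant C. It held 1.65% and 1.54% in mutants D and Q and 1.70% to 1.85% in the wild types. Gnas and Gnai2 together held 80.1%, 76.2% and 76.2% of the family's TPM in mutants C, D and Q, against 75.8%, 74.7% and 75.2% in wild types A, F and L.

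Gna14 was the member with the largest difference between the genotypes in the fit, in which it was 5.43-fold lower in the mutant. It encodes a Gq class subunit that in mammals is expressed in far fewer tissues than Gnaq and Gna11. Its CPM was 0.991, 0.765 and 1.08 in mutants C, D and Q, against 5.05, 4.98 and 5.51 in wild types A, F and L. Each mutant library was below each wild-type library by a wide margin, and mutant C lay between the other mutants. These values rest on 9, 16 and 35 counts in the mutants and 127, 79 and 93 counts in the wild types. TPM was 0.19, 0.43 and 0.54 in the mutants and 3.22, 2.82 and 3.05 in the wild types. The fitted log2 change was -2.44 ± 0.24 (SE, here and below the standard error of the fit) for all 6 libraries, and -2.46 ± 0.25 (SE) without mutant C.

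The same TPM values can be given as shares of the Gq class. Gna14 made up 1.38%, 0.885% and 1.24% of the class's TPM in mutants C, D and Q, and 5.39%, 5.56% and 5.61% in wild types A, F and L. These shares restate the difference in Gna14 for which the family was chosen. The share in mutant C also carries the low level of Gnaq there.

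Its paralogs held more of the signal and differed less. Gnaq, the ubiquitous founder of the class, had 23.7, 51.3 and 47.9 CPM in mutants C, D and Q and 53.6, 52.3 and 55.1 CPM in wild types A, F and L. The mutants were all lower, by a small margin in D and Q and by a wide one in C. The log2 change was -0.39 ± 0.29 (SE), and -0.12 ± 0.07 (SE) without mutant C. Gna11, the close relative of Gnaq, had 9.25, 12.4 and 12.2 CPM in the mutants and 14.5, 11.0 and 12.9 CPM in the wild types, with overlapping groups (log2 change -0.17, standard error 0.20). Gna15, the promiscuous subunit found mainly in blood cells, had 27.3, 24.7 and 26.1 CPM in the mutants and 24.3, 24.5 and 27.1 CPM in the wild types. Its groups overlapped and its log2 change was 0.04 ± 0.14 (SE).

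The Gq class lies in tandem pairs, so that Gna14 could be set beside its neighbour. Gna14 (ENSMUSG00000024697) spans chr19:16435762-16610820 and Gnaq (ENSMUSG00000024639) chr19:16132831-16387463, both on the plus strand of mm10 in the GENCODE M21 annotation, with 48.3 kb between them. Gna15 and Gna11 lie 4.5 kb apart on chromosome 10. The neighbour 48.3 kb upstream thus kept 0.92 of its wild-type level in mutants D and Q, while Gna14 kept 0.18, as ratios of mean CPM.

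The start regions of these neighbours are unlike in composition. The 250 bases before the RefSeq start (GRCm38.p6, plus strand, chr19:16435417-16435666 for Gna14 and chr19:16132434-16132683 for Gnaq) are shown to compare them, with capitals at each CG dinucleotide, the site of DNA methylation.
Gna14: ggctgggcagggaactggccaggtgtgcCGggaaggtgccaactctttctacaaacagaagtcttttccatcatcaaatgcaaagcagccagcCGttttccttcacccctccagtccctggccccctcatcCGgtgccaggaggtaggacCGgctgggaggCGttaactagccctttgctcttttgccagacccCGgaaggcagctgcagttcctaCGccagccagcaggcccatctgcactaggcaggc
Gnaq: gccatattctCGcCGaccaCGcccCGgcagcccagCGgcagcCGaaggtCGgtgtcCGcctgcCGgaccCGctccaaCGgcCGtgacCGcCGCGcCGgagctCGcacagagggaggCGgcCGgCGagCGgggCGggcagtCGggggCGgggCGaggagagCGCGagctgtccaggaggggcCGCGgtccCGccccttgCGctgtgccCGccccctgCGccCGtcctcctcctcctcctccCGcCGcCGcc
The Gna14 stretch holds 7 CG dinucleotides and 60.0% G and C, and the Gnaq stretch 37 and 79.2%. The median over all 32851 windows of the RefSeq table was 6 CG dinucleotides and 52.4% G and C. The 6-base GATA motif, which is GATA with A or T before it and A or G after it, was searched on both strands of the 300-base windows, which reach 50 bases past the start. It matched 0 times in the windows of Gna14, Gnaq, Gna11 and Gna15, and 29.8% of all windows hold at least 1 match. The windows of Gna14 and Gnaq end at 16435716 and 16132733, before the GENCODE starts at 16435762 and 16132831. The bases around those starts were therefore not fully searched.

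Gnaz was the other member with a difference of more than 2-fold. It encodes Gz, an inhibitor of adenylyl cyclase that is known from platelets and neurons. Gnaz had 0.441, 0.813 and 0.806 CPM in mutants C, D and Q, against 1.67, 1.77 and 2.13 CPM in wild types A, F and L. The groups did not overlap, but the level was low throughout, with 4, 17 and 26 counts in the mutants and 42, 28 and 36 in the wild types. The log2 change was -1.36 ± 0.31 (SE), and -1.20 ± 0.31 (SE) without mutant C.

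Gnai2, the main Gi subunit of blood cells and a mediator of chemokine responses, was the only member whose CPM lay above the wild types in every mutant. It had 510, 462 and 466 CPM in mutants C, D and Q and 422, 426 and 416 CPM in wild types A, F and L. The margin was small, with a log2 change of 0.19 and a standard error of 0.16, or 0.13 ± 0.07 (SE) without mutant C. In TPM its groups overlapped, with 153, 405 and 366 in the mutants and 421, 377 and 361 in the wild types. Gnai3, its close relative, had 234, 216 and 226 CPM in the mutants and 191, 229 and 215 CPM in the wild types, and the groups overlapped.

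Gnas, which couples receptors to cAMP production, had 397, 351 and 348 CPM in mutants C, D and Q and 328, 356 and 372 CPM in wild types A, F and L. The groups overlapped, and the log2 change of 0.05 (standard error 0.17) became -0.02 (standard error 0.08) without mutant C. Gnas had 150, 389 and 344 TPM in the mutants and 415, 398 and 406 TPM in the wild types. TPM was lower in the mutants for most genes, and on the log2(TPM + 0.1) scale the difference of Gnas was -0.58 where the median of all tested genes was -0.63, or -0.15 against a median of -0.13 without mutant C.

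In the G12 class, Gna12 had 47.5, 75.7 and 67.4 CPM in mutants C, D and Q and 75.8, 79.1 and 80.9 CPM in wild types A, F and L. The mutants were all lower, mutant D by less than 1 CPM and mutant C by far. Gna13, needed for vessel formation in the mouse embryo, had 42.0, 91.1 and 86.6 CPM in the mutants and 87.5, 96.7 and 88.4 CPM in the wild types, with overlapping groups. Their log2 changes of -0.31 and -0.31 (standard errors 0.20 and 0.30) shrank to -0.14 and -0.04 (standard errors 0.08 and 0.08) without mutant C.

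**Figure D2:**
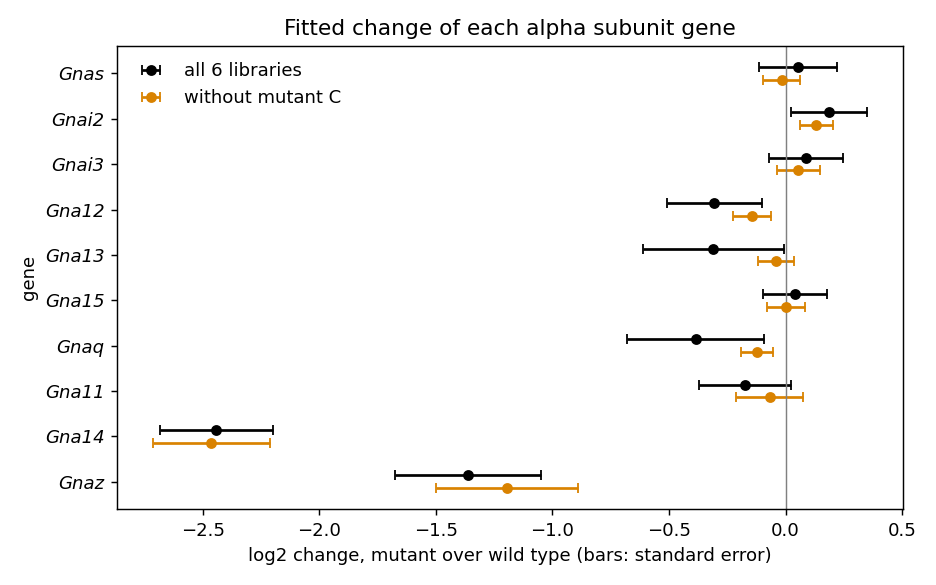
Fitted log2 change of each alpha subunit gene, mutant over wild type, with standard errors, for all 6 libraries (black) and without mutant C (orange). Gna14 lies at -2.44 and -2.46 and Gnaz at -1.36 and -1.20, and the other 8 lie between -0.39 and 0.19.

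By edgeR's quasi-likelihood test over all genes, 1 of the 10 members, Gna14, was past an adjusted p of 0.05 with all 6 libraries, where 0.155% of all genes were. It was also the only one without mutant C, where 0.840% of all genes were. When any library other than mutant C was left out, 0 members and 0 of all genes passed. The CPM of the groups did not overlap in 5 members, lower in the mutant for Gna14, Gnaq, Gna12 and Gnaz and higher for Gnai2, beside 22.0% of all genes in either direction, 11.4% lower and 10.6% higher. The median log2 change was -0.24 over the members and -0.02 over all genes tested. Because the family was chosen on this comparison, nothing is read from these counts.

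Among the members, mutant C was lowest beside the other mutants in the longest genes. Its log2 CPM ratio to the mean of mutants D and Q was -1.07 for Gnaq (5644 bases) and -1.08 for Gna13 (4395 to 5970 bases, depending on the isoforms found). It was 0.18 for Gnas, 0.11 for Gna15 and 0.14 for Gnai2, which are between 1725 and 2177 bases long. Across the 10 members Spearman's rho between length and this ratio was -0.96, as a description of values that share the same 3 libraries. Part of that rank order rests on small differences in length, as Gna14, Gna11, Gna12 and Gnaz have mean lengths of 3383, 3414, 3416 and 3427 bases. The ratios of Gna14 and Gnaz rest on 9 and 4 counts in mutant C. Gna14 (3383 bases) had a ratio of 0.10, where the median of the 2095 genes of 3000 to 4000 bases was -0.45. Of the other members in that range of length, Gnai3 had a ratio of 0.08, close to that of Gna14, and Gna11, Gna12 and Gnaz had ratios of -0.42, -0.59 and -0.88.

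**Figure D3:**
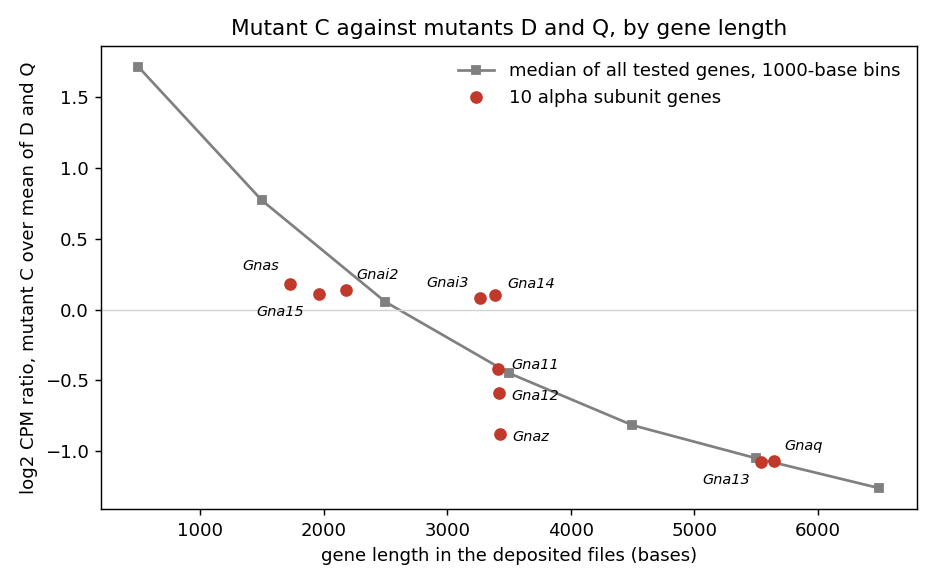
Log2 CPM ratio of mutant C to the mean of mutants D and Q against gene length in bases, for the 10 alpha subunit genes (red) and as the median of all tested genes in 1000-base bins up to 7000 bases (grey). Gnaq and Gna13, the longest members, lie at -1.07 and -1.08, and Gna14 lies at 0.10.

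The pattern of Gna14 over the 6 libraries was closest to that of Cnr2, Aqp1, Muc13, Epdr1 and Dach1, by Pearson's r of log2 CPM among 10041 genes with a mean of at least 50 counts (r of 0.994, 0.993, 0.991, 0.989 and 0.989). Both genotypes enter r, so it includes the step between them. Cnr2 encodes the cannabinoid receptor of immune cells, which couples to Gi. It had 7.82, 7.74 and 8.15 CPM in mutants C, D and Q and 19.1, 17.4 and 18.7 CPM in wild types A, F and L. Aqp1, the water channel of red cells, had 2.64, 2.49 and 2.67 CPM in the mutants and 7.67, 8.64 and 9.65 CPM in the wild types. Their groups did not overlap, beside 22.0% of all genes. Both genes were picked for their likeness to Gna14 in these libraries, so narrow and separate groups follow from that choice.

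Markers of other cell types were read in the same libraries. By edgeR over all genes, 0.155% of genes passed with all libraries and 0.761% fell without mutant C, and the counts of markers are set beside these shares. The megakaryocyte list of 12 genes summed to 59.1, 94.4 and 91.4 CPM in mutants C, D and Q and 153 to 159 CPM in the wild types. Of its 9 tested members 3 fell with all libraries (Gp5, Itga2b and Treml1) and 6 without mutant C. The mast cell and basophil list of 10 genes summed to 27.9 to 34.6 CPM in the mutants and 186 to 233 CPM in the wild types. Of its 6 tested members 0 were called with all libraries and 5 fell without mutant C. The other tested member, Mcpt8, was not lower in the mutants. It had 5.07, 1.15 and 1.33 CPM in mutants C, D and Q and 1.27, 1.01 and 1.18 CPM in the wild types. That list holds Gata2, the gene whose enhancer was deleted. Without Gata2, a choice made after the values were seen, it summed to 25.7, 11.4 and 11.6 CPM in mutants C, D and Q and 155, 129 and 132 CPM in wild types A, F and L, and 4 of 5 fell without mutant C. Prss34, Fcer1a, Tpsb2 and Cma1 were at 0 in every mutant library, and Tpsb2 and Cma1 in all 6. Prss34 and Fcer1a were near 0 in the wild types too. Prss34 had 0.119 CPM in wild type A and 0 in F and L, and Fcer1a 0.0592 CPM in L and 0 in A and F.

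The erythroid list of 12 genes summed to 1398, 219 and 215 CPM in mutants C, D and Q and 468, 596 and 340 CPM in wild types A, F and L. Mutant C was thus above every wild type and mutants D and Q below every one. Hbb-bs, Hbb-bt and Hba-a1 made up most of the sum in mutant C, with 649, 542 and 158 CPM. In TPM, Hbb-bs in mutant C (566) lay within the wild types (310 to 678), as did Hba-a1 (153 against 95.45 to 191). Hbb-bt (522) lay above them (274 to 453). Gata1, Klf1, Epor, Ermap and Rhag were lower in mutant C than in every wild type. Of the 12, Epor fell with all libraries, and Epor, Ermap, Gata1, Klf1 and Rhag, or 5 of 12, fell without mutant C. No megakaryocyte or erythroid marker was at 0 in every mutant. The hepatoblast list of 12 genes summed to 244, 101 and 625 CPM in mutants C, D and Q and 103, 71.1 and 47.7 CPM in wild types A, F and L. The endothelial list of 6 genes summed to 55.1 to 66.0 CPM in the mutants and 78.9 to 86.3 CPM in the wild types. The macrophage list of 7 genes, at 172 to 220 CPM in the mutants and 161 to 183 CPM in the wild types, and the progenitor and myeloid list of 6 genes, at 2300 to 2940 CPM in the mutants and 2580 to 3630 CPM in the wild types, overlapped between the groups. Csf1r is in both of these lists and made up most of the macrophage sum. It had 149, 202 and 154 CPM in mutants C, D and Q and 166, 156 and 146 CPM in the wild types. None of the members of these hepatoblast, endothelial, macrophage and progenitor lists was called in either fit. The part of these cell types in the Gna14 and Gnaz values was not tested. In sorted bulk cells, fewer cells of a type and less RNA per cell cannot be told apart.

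The other genes of G protein signalling were taken from lists of 173 symbols, of which 122 were tested. The lists were written with earlier results of these data known. Their shares are therefore a description and cannot be read as an excess over all genes. With all 6 libraries 0 of the 122 passed over all genes by edgeR, beside 0.155% of all genes. At an unadjusted p under 0.05 there were 16, or 13.1%, beside 4.80% of all genes, and after adjustment limma-voom called 0 of 122 (0.262% of all genes). DESeq2, which was run without the filter on low counts and gave an adjusted p for 156 of the list, called 3 (0.729% of all genes), namely F2r, P2ry1 and Adcy6. Without mutant C 6 of 124 (4.84%) fell and 0 rose, beside 0.761% of all genes lower and 0.0793% higher, and 21 (16.9%) had an unadjusted p under 0.05, beside 10.4% of all genes. The median log2 change of the list was -0.07 with all libraries and -0.03 without mutant C. The 6 that fell were 3 receptors, a beta subunit, a protein kinase C and an adenylyl cyclase, and they were not called with any other single library left out.

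Of 49 tested receptors, F2r, F2rl2 and P2ry1 fell without mutant C. F2r encodes the thrombin receptor PAR1, which signals through Gq and G13. It had 19.6, 26.1 and 25.0 CPM in mutants C, D and Q and 55.5, 51.9 and 52.6 CPM in wild types A, F and L. This was a log2 change of -1.07 ± 0.07 (SE) (edgeR adjusted p = 0.0011 without mutant C, and 0.076 with all libraries). P2ry1 encodes a platelet ADP receptor that couples to Gq. It had 2.64, 4.49 and 5.33 CPM in the mutants and 10.9, 9.71 and 9.47 CPM in the wild types (log2 change -1.03, standard error 0.16, edgeR adjusted p = 0.039 without mutant C and 0.39 with all libraries). F2rl2 encodes PAR3, a thrombin cofactor receptor of mouse platelets. Its CPM was 3.52, 1.67 and 1.61 in the mutants and 4.65, 4.10 and 4.44 in the wild types (log2 change -1.43, standard error 0.22, edgeR adjusted p = 0.035 without mutant C and 0.58 with all libraries). The log2 changes of these receptors, and of the 3 genes below, are those without mutant C. In these receptors each mutant library was below each wild-type library. The most abundant receptor, the adhesion receptor gene Adgrg1, had 223, 533 and 548 CPM in the mutants and 632, 612 and 610 CPM in the wild types and did not pass.

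Of 11 tested beta and gamma subunits, Gnb4 fell without mutant C. It had 15.9, 9.61 and 10.2 CPM in mutants C, D and Q and 17.9, 23.7 and 18.2 CPM in wild types A, F and L (log2 change -1.01, standard error 0.15, edgeR adjusted p = 0.032 without mutant C and 0.58 with all libraries). Here mutant C lay nearer to the wild types than mutants D and Q did. The most abundant of the list was Gng5, a short gene of 576 bases, with 502, 93.2 and 116 CPM in the mutants and 88.8, 97.6 and 104 CPM in the wild types.

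Among effectors, Prkcq and Adcy6 fell without mutant C, 1 of 15 tested Gq effectors and 1 of 13 tested Gs and Gi effectors. With all libraries 14 of 14 tested Gq effectors had a log2 change below 0, with a median of -0.43. Without mutant C this was 12 of 15, with a median of -0.19. In the whole list 71 of 122 were below 0 with all libraries and 69 of 124 without mutant C. Prkcq, a protein kinase C of T cells and platelets, had 12.9, 16.9 and 17.0 CPM in mutants C, D and Q and 26.6, 27.1 and 24.9 CPM in wild types A, F and L (log2 change -0.64, standard error 0.08, edgeR adjusted p = 0.017 without mutant C and 0.40 with all libraries). Adcy6, an adenylyl cyclase that Gi inhibits, had 2.42, 5.83 and 6.26 CPM in the mutants and 15.6, 12.5 and 13.8 CPM in the wild types (log2 change -1.21, standard error 0.15, edgeR adjusted p = 0.013 without mutant C and 0.44 with all libraries). The groups were apart for both genes. The most abundant members of these lists did not pass: Prkcd had a log2 change of -0.02 with all libraries (standard error 0.16) and Prkar1a one of 0.05 (standard error 0.16).

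The remaining lists had 0 members past the threshold in either fit by edgeR and 0 by DESeq2 or limma-voom. They were 9 tested RGS proteins, which speed GTP hydrolysis by the alpha subunit, 9 chaperones and activators, 8 effectors of G12 and G13, 7 receptor kinases and arrestins, and 3 further alpha subunits. At an unadjusted p under 0.05 by edgeR there was 1 effector of G12 and G13 and 1 gene of the receptor kinases and arrestins with all libraries. There were 2 RGS proteins without mutant C, with 0 otherwise. Of all genes, 4.80% were under that p with all libraries and 10.4% without mutant C. With so few genes per list, nothing is drawn from these counts. Rgs2, which acts on Gq, had the smallest p of its list, with 130, 73.9 and 77.9 CPM in mutants C, D and Q and 51.2, 67.2 and 63.6 CPM in wild types A, F and L. In the other lists the smallest p belonged to Ccdc88c, with a log2 change of -0.60 (standard error 0.46), to Rhoc, with 0.94 (standard error 0.36), and to Grk4, with -0.80 (standard error 0.33). The most abundant members Rgs19, Nucb1, Rhoa and Grk2 had log2 changes of 0.20, -0.07, 0.08 and -0.20. Of alpha subunits outside the 10, the cone transducin gene Gnat2 reached 3.29 to 6.06 TPM in the mutants and 3.87 to 5.39 TPM in the wild types. Gnat1 and Gnat3, transducin and gustducin, were at 0 counts in all 6 libraries.

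**Figure D4:**
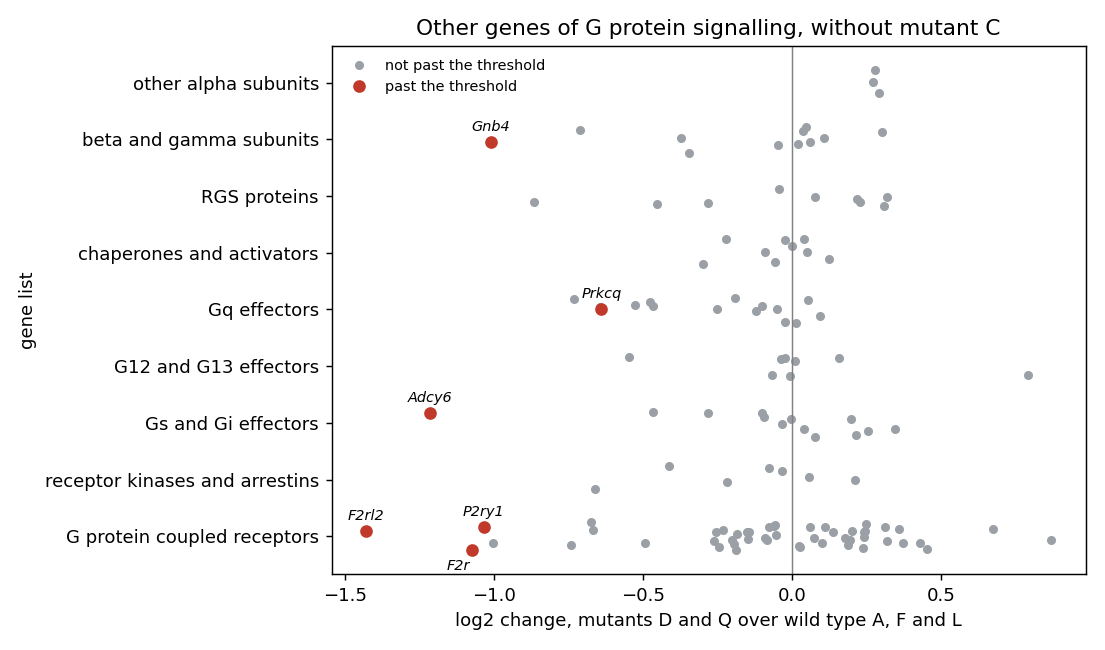
Log2 change of the other G protein signalling genes without mutant C (mutants D and Q over wild types A, F and L), 1 point per tested gene, by list, with arbitrary vertical scatter. The 6 genes past an adjusted p of 0.05 are named in red, and all lie below 0.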

How the data were processed

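The authors deposited 1 gene table per library. Their processing notes list, without roles, the tools RSEM 1.2.18, Bowtie 1.1.1 and CASAVA 1.8.2 and the build mm10. The strand, the read layout and the annotation used are not given in the sources here. The deposited expected counts, estimated reads per gene that need not be whole, were not normalized, per the file headers. TPM, as deposited, is corrected for gene length, and gene lengths were taken from the same files. A table keyed on Ensembl identifiers named 24448 of the 24815 genes.

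Counts were rounded and fitted across all genes with edgeR 4.0.16 in R 4.3.3 (filterByExpr with a minimum count of 10, TMM scaling, quasi-likelihood F test, Benjamini-Hochberg adjustment, threshold 0.05), which left 12222 genes. CPM uses the TMM factors, and log2 CPM a prior count of 2. Standard errors were computed from the log2 change and its F statistic. Mutant was compared with wild type (3 libraries each). Alternatives were RLE scaling, DESeq2 1.42.0, limma-voom (limma 3.58.1), no filter, each library left out, and the difference of mean log2(TPM + 0.1) or log2(TPM + 1). The code was tested on simulated counts with 200 changed genes.

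The members and lists were chosen from general knowledge with earlier results of these data known. Pathway genes are named where they passed in the fit with all libraries or without mutant C, or were the most abundant or had the smallest p of their list. Older list symbols were matched through RefSeq synonyms. Promoter windows come from RefSeq (GRCm38.p6) and matched 8 of the 10 members, and transcripts and positions from GENCODE M21. For genes with several transcripts, the complete coding sequence closest in length to the other members was used.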

Additional observations from a re-analysis of the deposited data

How the results depend on the processing

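No paired analysis was possible because the replicate letters differ between the genotypes. The log2 change of Gna14 lay between -2.58 and -2.30 over the 11 count-based fits, that of Gnaz between -1.48 and -1.20, and Gnas changed sign. On the TPM scale the median of all tested genes moved to -0.63 (pseudocount 0.1), -0.50 (pseudocount 1) and -0.13 (pseudocount 0.1 without mutant C, an alternative chosen after seeing the data). Gna14 was then at -2.76, -1.55 and -2.42. On that scale with all libraries all 10 members were below 0, as most genes were. Over all genes 19 passed by edgeR, 17 with RLE scaling, 124 by DESeq2, 32 by limma-voom and 36 without the filter. With 1 library left out the count ran from 0 to 106, the 106 being without mutant C and 0 for each other library. For the G protein signalling list the count was 0 by edgeR, 3 by DESeq2, and 0 to 6 with 1 library left out. Prkcd, near 0, turned to 0.010 with RLE scaling and 0.005 by DESeq2, and ran from -0.109 to 0.052 with 1 library left out, above 0 without wild type A (0.035) or mutant C (0.052). Over the 11 count-based fits the adjusted p ran from 9.3e-07 (DESeq2) to 0.46 for F2r, and reached 0.84 for F2rl2, P2ry1, Gnb4, Prkcq and Adcy6, with lowest values of 0.035, 0.018, 0.032, 0.017 and 0.013. The cause of these shifts was not tested. Depth limits Gna14 and Gnaz most, with as few as 9 and 4 counts in mutant C.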
